A study of Allium sativum with 18 samples.

Results

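The genes described here are 3 of the 57561 genes in the expression table of the garlic (Allium sativum) libraries, and the study lists them with its photoperiod genes of enlarging bulbs. Asa2G04763.1 and Asa6G01159.1 were named TGA4-like in the text of the study, and Asa3G03846.1 was labelled COL, for CONSTANS-LIKE, among its photoperiod genes. The members were taken by their gene identifiers. The bulb enlargement genes of the study were selected on the difference in expression between growth stages (P under 0.05 and over 2-fold). The study asked for this in at least 2 of the 3 varieties. The stage differences of these genes are therefore given as a description without a test, and only differences between varieties were tested.

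The libraries came from 3 garlic varieties that were planted in 2019 and collected in 2020. In Yuanjiangyangsuan, Ershuizao and Chalingzipisuan, bulbs under enlarging growth were collected in March and bulbs that had not begun to enlarge were collected in February, with 3 individuals per variety and stage and 18 libraries in all. The labels give no treatment, and stage, collection date and day length changed together and cannot be told apart. The labels call the tissue leaf but name bulbs in their developmental stage, and the study describes bulbs. No marker list was at hand to check the tissue. The values are FPKM, fragments scaled by gene length and by the depth of the library, which can be compared between genes. In such bulk libraries fewer cells that express a gene and less RNA per cell cannot be told apart.

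CONSTANS and its relatives are zinc finger proteins with a CCT domain. In Arabidopsis, CONSTANS accumulates at the end of long days and activates FT, the mobile signal that triggers flowering. TGA4 belongs to the TGA clade of bZIP transcription factors, and in Arabidopsis it was described as a partner of CONSTANS in the control of FT. In onion, a relative of garlic, bulbing is promoted by long days, and members of the FT family act in bulbing and in flowering.

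Each library held 10340511 to 14117986 fragments on genes (median 11924780), recovered from the steps of the FPKM values. In a principal component analysis of all genes tested, the first component held 41.5% of the variance and the second 28.2%. The first set Yuanjiangyangsuan (107 to 173) apart from both other varieties. Chalingzipisuan (-113 to -24.6) and Ershuizao (-104 to -51.4) overlapped on it. On the second component the 9 libraries before enlargement lay between -128 and -42.3, and 8 of the 9 enlarging libraries lay between 2.88 and 151. Enlarging replicate 3 of Chalingzipisuan lay at -52.1, among the libraries before enlargement. Its mean absolute log2 difference was 0.802 from the other enlarging libraries of its variety and 0.481 from the libraries before enlargement. Enlarging replicate 2 of Ershuizao lay at 2.88, with 0.527 from its own stage and 0.523 from the other stage. Several values of the 3 genes are also given without these libraries, which moved some of them by over 1.5 times.

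Asa2G04763.1, with a recovered length of 1098 bases, was the most abundant of the 3 genes in enlarging bulbs. In Yuanjiangyangsuan its FPKM values were 13.2, 29.4 and 37.5 in enlarging bulbs, against 6.69, 4.66 and 3.21 before enlargement. In Ershuizao they were 25.8, 14.2 and 17.6 in enlarging bulbs, against 9.59, 5.52 and 8.12 before enlargement. Every enlarging library of these varieties lay above every library before enlargement. In Chalingzipisuan the FPKM values were 25.1, 23.0 and 1.59 in enlarging bulbs, against 3.22, 7.89 and 2.89 before enlargement. Here the stages overlapped through replicate 3 alone, whose 25 fragments gave the lowest of all 18 values, with an exact Poisson 95% interval of 1.03 to 2.34 FPKM that covers counting error only.

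The mean FPKM value of Asa2G04763.1 was 26.7 ± 12.3 (SD, n = 3) in enlarging bulbs of Yuanjiangyangsuan and 4.85 ± 1.75 (SD, n = 3) before enlargement, a ratio of 5.5. The means were 19.2 ± 5.98 and 7.75 ± 2.06 (SD, n = 3 each) in enlarging bulbs and before enlargement in Ershuizao, a ratio of 2.48. In Chalingzipisuan they were 16.6 ± 13.0 and 4.67 ± 2.80 (SD, n = 3 each), a ratio of 3.55, which became 5.15 without enlarging replicate 3. The log2 fold changes of enlarging over before, on the log2(FPKM + 0.5) scale, were 2.28 (standard error 0.41) in Yuanjiangyangsuan, 1.25 (0.28) in Ershuizao and 1.19 (1.00) in Chalingzipisuan. The last was 2.38 (standard error 0.41) without enlarging replicate 3 and 0.57 (1.05) without enlarging replicate 1. In enlarging Yuanjiangyangsuan the mean value of the gene lay above that of 81.9% of all genes, and before enlargement above that of 51.4%.

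The other TGA4-like gene, Asa6G01159.1, has a recovered length of 1413 bases and was much less abundant, with 360 fragments over the 18 libraries against 3586 for Asa2G04763.1. In Yuanjiangyangsuan its FPKM values were 2.75, 1.12 and 4.71 in enlarging bulbs, against 0.236, 0 and 0 before enlargement. In Chalingzipisuan they were 1.88, 1.32 and 1.23 in enlarging bulbs, against 0.0877, 0 and 0 before enlargement. The gene was thus near or at 0 before enlargement in both varieties, and every enlarging library lay above. In Ershuizao the values were 1.65, 0.531 and 1.07 in enlarging bulbs, against 0.633, 0.107 and 0.988 before enlargement, and the stages overlapped.

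Since few fragments stood behind these values, the stages were compared by their fragments. Yuanjiangyangsuan had 173 fragments of Asa6G01159.1 in enlarging bulbs and 5 before enlargement, a depth-scaled ratio of 34.1 with an exact 95% counting interval of 14.3 to 106. Chalingzipisuan had 83 in enlarging bulbs and 2 before enlargement, a ratio of 47.7 (12.8 to 400). Ershuizao had 59 in enlarging bulbs and 38 before enlargement, a ratio of 1.80 (1.18 to 2.78). These intervals cover counting error and not the spread between individuals. The ratio of mean FPKM values was 1.88 in Ershuizao and 2.36 without its enlarging replicate 2, and 50.5 in Chalingzipisuan and 54.7 without its enlarging replicate 3. The log2 fold changes were 2.41 (standard error 0.46) in Yuanjiangyangsuan, 0.59 (0.45) in Ershuizao and 1.89 (0.29) in Chalingzipisuan, where the pseudocount of 0.5 FPKM lowers the change of a gene near 0. In Ershuizao it was 0.87 (0.46) without enlarging replicate 2. It was 0.22 (0.42) there without replicate 2 before enlargement, which held 2 fragments. With all libraries the value in Ershuizao lay under 2-fold and the smallest above it was 1.19, that of Asa2G04763.1 in Chalingzipisuan. The study applied its 2-fold limit in its own test and in at least 2 of 3 varieties, so its choice allows such a value.

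The enlarging library of Chalingzipisuan that stood apart did not stand apart for this gene. Replicate 3 held 1.23 FPKM of Asa6G01159.1, close to 1.32 in replicate 2 and above all 3 libraries before enlargement, while its Asa2G04763.1 was below them. The share of Asa6G01159.1 in the summed FPKM of both TGA4-like genes was 43.7% there. It was 6.98% and 5.4% in the other enlarging libraries of that variety. The mean share in enlarging bulbs and before enlargement was 10.7 ± 6.77% and 1.14 ± 1.97% in Yuanjiangyangsuan, 5.11 ± 1.31% and 6.31 ± 4.47% in Ershuizao, and 18.7 ± 21.7% and 0.885 ± 1.53% in Chalingzipisuan (SD, n = 3 each). The mean of 18.7% rests on the 43.7% of replicate 3. Asa2G04763.1 was the more abundant of the pair in every library.

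Asa3G03846.1, the COL gene, has a recovered length of 1179 bases and went the opposite way. In Yuanjiangyangsuan its FPKM values were 3.35, 2.61 and 2.15 in enlarging bulbs, against 14.2, 13.8 and 14.9 before enlargement. In Ershuizao they were 1.51, 0.0707 and 1.48 in enlarging bulbs, against 12.7, 7.97 and 12.0 before enlargement. In Chalingzipisuan they were 1.43, 1.83 and 2.13 in enlarging bulbs, against 11.8, 13.3 and 12.7 before enlargement. All 9 enlarging libraries, with 0.0707 to 3.35 FPKM, lay below all 9 libraries before enlargement, with 7.97 to 14.9 FPKM. Enlarging replicate 3 of Chalingzipisuan was no exception, and its value was the highest enlarging value of its variety.

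The mean FPKM value of Asa3G03846.1 was 2.71 ± 0.605 in enlarging bulbs of Yuanjiangyangsuan and 14.3 ± 0.558 before enlargement (SD, n = 3 each), so that the value before enlargement was 5.29 times the enlarging one. In Ershuizao the means were 1.02 ± 0.823 in enlarging bulbs and 10.9 ± 2.57 before enlargement (SD, n = 3 each), 10.7 times. There a single fragment was counted in enlarging replicate 2 (exact Poisson 95% interval 0.00179 to 0.394 FPKM), and without that library the mean before enlargement was 7.3 times the enlarging one. In Chalingzipisuan the means were 1.80 ± 0.348 in enlarging bulbs and 12.6 ± 0.736 before enlargement (SD, n = 3 each), 7.02 times. The log2 fold changes were -2.23 (standard error 0.22) in Yuanjiangyangsuan, -3.09 (0.52) in Ershuizao and -2.52 (0.23) in Chalingzipisuan, and that of Ershuizao was -2.49 (0.27) without enlarging replicate 2.

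**Figure D1:**
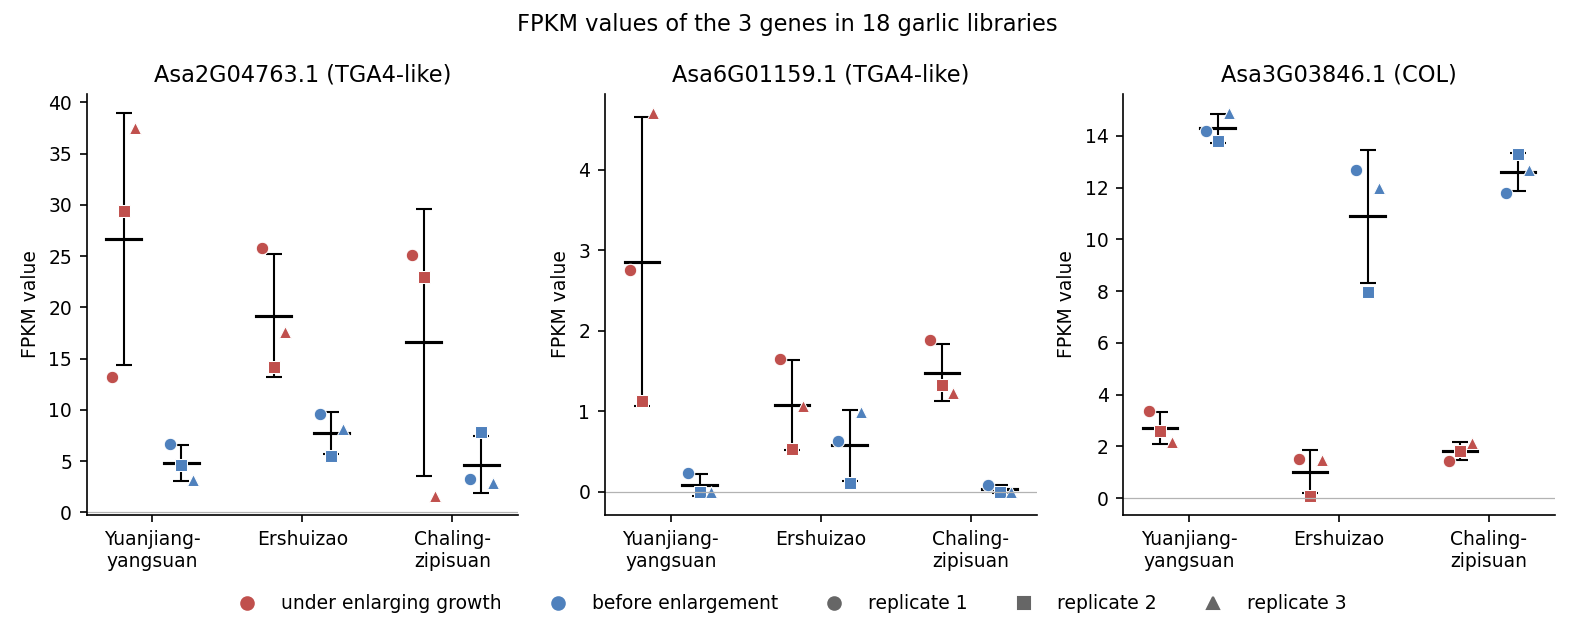
FPKM values of Asa2G04763.1, Asa6G01159.1 and Asa3G03846.1 (y axes, each with its own scale) in each library, by variety and stage, with enlarging bulbs in red and bulbs before enlargement in blue. Symbols mark replicates, lines the means and bars the SD (n = 3). The single low enlarging value of Asa2G04763.1 at 1.59 is replicate 3 of Chalingzipisuan, and the 9 enlarging values of Asa3G03846.1 all lie below 7.97, the lowest value before enlargement.

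The stages did not overlap for 3 of the 3 genes in Yuanjiangyangsuan, where 52.8% of all genes tested did not overlap, for 2 of 3 in Ershuizao, against 33.2%, and for 2 of 3 in Chalingzipisuan, against 23.7%. At the thresholds of the study, 27.4%, 13.0% and 11.7% of all genes tested passed in Yuanjiangyangsuan, Ershuizao and Chalingzipisuan. Nothing is read from these shares, since the stage contrast chose the genes. In Chalingzipisuan 3403 of 29056 genes passed with all libraries and 6754 without enlarging replicate 3. Whether the stage differences of the 3 genes differ between varieties was not tested.

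**Figure D2:**
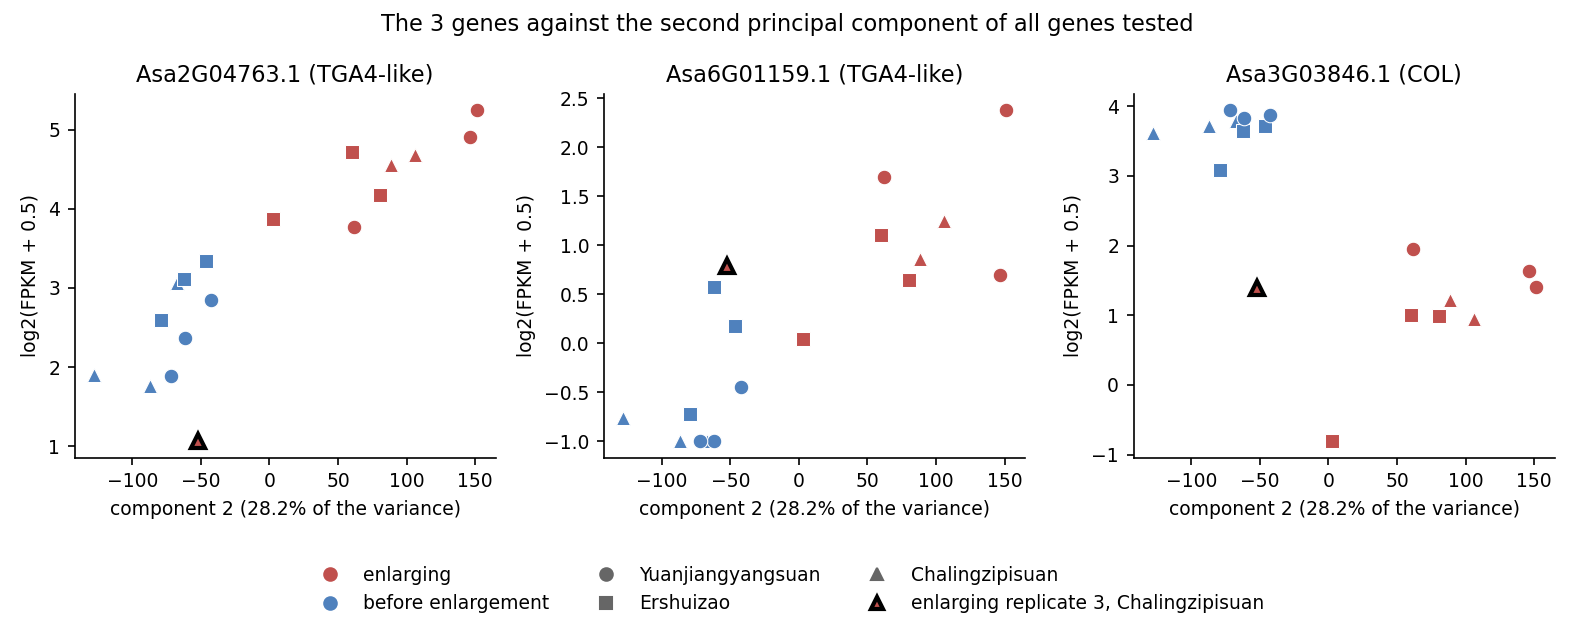
Level of each of the 3 genes as log2(FPKM + 0.5) (y axes) against the position of the library on the second principal component of all genes tested (x axes), for 18 libraries. Enlarging replicate 3 of Chalingzipisuan, outlined in black at -52.1, lies with the libraries before enlargement for Asa2G04763.1 and at the level of the enlarging libraries for Asa6G01159.1 and Asa3G03846.1.

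The order of the mean levels differed between the genes. For Asa3G03846.1 it was Yuanjiangyangsuan, Chalingzipisuan and Ershuizao at both stages. Yuanjiangyangsuan did not overlap its neighbour Chalingzipisuan at either stage, with 2.15 as its lowest value against 2.13 as the highest in enlarging bulbs, and 13.8 against 13.3 before enlargement. Chalingzipisuan and Ershuizao overlapped at both stages. For both TGA4-like genes the order in enlarging bulbs began with Yuanjiangyangsuan and that before enlargement with Ershuizao, and every pair of neighbours among the 6 groups overlapped.

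Differences between varieties were then tested over 33681 genes with limma, with P adjusted by Benjamini-Hochberg, in 3 pairs of varieties. Asa3G03846.1 was higher in Yuanjiangyangsuan than in Ershuizao over both stages, with a log2 difference of 0.84 (standard error 0.26, adjusted P = 0.0176 by limma). The test also called it in enlarging bulbs, by 1.27 (standard error 0.37, limma adjusted P = 0.0155), where the mean levels were 2.71 and 1.02 FPKM. Before enlargement the means were 14.3 and 10.9 FPKM, a difference of 0.40 (standard error 0.37, limma adjusted P = 0.442) that did not pass. Without Ershuizao enlarging replicate 2, the library with 1 fragment, the difference was 0.54 over both stages (limma adjusted P = 0.0118) and 0.67 in enlarging bulbs (limma adjusted P = 0.041), so that this library moved the value by over 1.5 times and the calls stayed. Without Yuanjiangyangsuan enlarging replicate 1 the difference in enlarging bulbs was 1.13 (limma adjusted P = 0.059) and no longer passed.

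This was 1 of the 3 genes called between Yuanjiangyangsuan and Ershuizao, against 41.7% of all genes tested over both stages, 31.6% in enlarging bulbs and, with 0 of 3 called, 30.7% before enlargement. A share of 1 in 3 lies near that background. Before enlargement none of the 3 was below an unadjusted limma P of 0.05, and limma voom on the recovered fragments called 1, Asa6G01159.1. The varieties did not overlap for Asa3G03846.1 in this pair at either stage, which also held for 44.6% of all genes tested in enlarging bulbs and 49.9% before enlargement.

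Between Yuanjiangyangsuan and Chalingzipisuan limma called none of the 3 genes in any of the contrasts, where it called 38.7% of all genes over both stages, 29.2% in enlarging bulbs and 29.0% before enlargement. At unadjusted P under 0.05 the number was also 0 of 3 in each of these contrasts, and voom called 0 of 3. Asa3G03846.1 differed by 0.33 over both stages (standard error 0.26, limma adjusted P = 0.358), with no overlap at either stage. Non-overlap held for 38.8% of all genes in enlarging bulbs and 42.4% before enlargement. An exact two-sided permutation test, which exchanged the variety labels within each stage, gave P = 0.005 for this gene in both pairs with Yuanjiangyangsuan, the smallest P that the 400 arrangements allow. Non-overlap in 1 direction at both stages fixes this P at its minimum. Against Chalingzipisuan in enlarging bulbs it rests on 37 against 36 fragments, with overlapping counting intervals of 1.52 to 2.97 and 1.49 to 2.94 FPKM. The permutation P values were not adjusted for the number of tests.

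Between Ershuizao and Chalingzipisuan limma called 0 of the 3 genes in each contrast, against 2.56% of all genes over both stages, 0.837% in enlarging bulbs and 1.07% before enlargement. At unadjusted P under 0.05 there were 0, 1 and 1 of 3 in the same contrasts, and voom called 0 of 3. Asa3G03846.1 differed by -0.51 over both stages (limma adjusted P = 0.405, exact permutation P = 0.075). Without Ershuizao enlarging replicate 2 this difference was -0.209. Asa6G01159.1 was 0.576 ± 0.443 FPKM in Ershuizao and 0.0292 ± 0.0506 FPKM in Chalingzipisuan before enlargement (SD, n = 3 each). All 3 libraries of Ershuizao lay above those of Chalingzipisuan, as for 19.3% of all genes that did not overlap in that pair, and the difference of 0.93 did not pass (limma adjusted P = 0.413). In enlarging bulbs this pair overlapped for each of the 3 genes, and 12.2% of all genes did not overlap.

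For the TGA4-like genes no variety difference passed in this test. Asa2G04763.1 differed by 0.67 (standard error 0.52) between Yuanjiangyangsuan and Chalingzipisuan over both stages, by -0.13 between Yuanjiangyangsuan and Ershuizao, and by 0.80 between Ershuizao and Chalingzipisuan. The limma adjusted P were 0.342, 0.869 and 0.545 in that order, and the exact permutation P were 0.41, 0.705 and 0.2. In the same pairs Asa6G01159.1 differed by 0.37, 0.08 and 0.28, with limma adjusted P of 0.356, 0.849 and 0.757 and exact permutation P of 0.23, 0.84 and 0.385. The small difference between Yuanjiangyangsuan and Ershuizao joined opposite ones, 0.99 in enlarging bulbs (standard error 0.41, limma adjusted P = 0.081) and -0.83 before enlargement (standard error 0.41, limma adjusted P = 0.147). The difference in enlarging bulbs passed at 1.44 without Yuanjiangyangsuan enlarging replicate 2 (limma adjusted P = 0.0144) and at 1.30 with quantile normalization (0.0186), that before enlargement at -1.19 without Ershuizao before enlargement replicate 2 (0.0494), and that over both stages turned negative, to -0.055, without Ershuizao enlarging replicate 2. Without Chalingzipisuan enlarging replicate 3, the 0.67 of Asa2G04763.1 between Yuanjiangyangsuan and Chalingzipisuan was 0.077. The 0.80 of this gene between Ershuizao and Chalingzipisuan was 0.206 without that library. In all, 9 permutation tests were made, and P values that missed the threshold do not show that the varieties were alike.

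**Figure D3:**
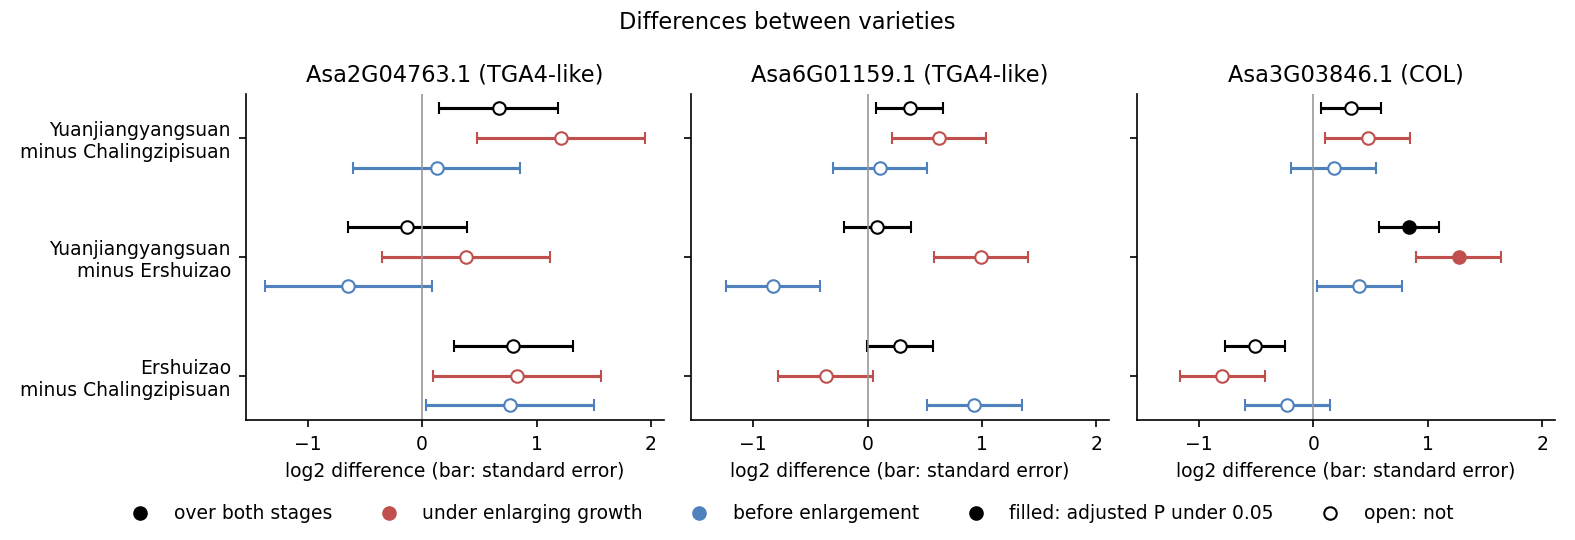
Log2 differences between varieties on the log2(FPKM + 0.5) scale (x axis, bars are standard errors) for the 3 genes and 3 pairs of varieties (rows), over both stages (black), in enlarging bulbs (red) and before enlargement (blue). Filled points passed at adjusted P under 0.05, and both are those of Asa3G03846.1 for Yuanjiangyangsuan minus Ershuizao, at 0.84 and 1.27.

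The genes with the most similar profiles were searched among the 33680 other genes tested, by Pearson correlation of log2(FPKM + 0.5) over the 18 libraries, which share stage and variety. For Asa2G04763.1 they were Asa3G00370.1 (r = 0.974), Asa3G03176.1 (0.967) and Asa1G02972.1 (0.965). Asa3G00370.1 had 25.4 ± 12.7 FPKM in enlarging bulbs of Yuanjiangyangsuan and 3.25 ± 0.716 FPKM before enlargement (SD, n = 3 each), levels close to those of Asa2G04763.1. Without Chalingzipisuan enlarging replicate 3, Asa3G00370.1 stayed at rank 1, while Asa3G03176.1 lay at rank 6 and Asa1G02972.1 at rank 26. The closest profiles to Asa6G01159.1 were those of Asa4G02065.1 (0.902), Asa7G04122.1 (0.900) and Asa5G05404.1 (0.896), while the closest to Asa3G03846.1 were those of Asa2G03865.1 (0.949), Asa5G05475.1 (0.948) and Asa6G01296.1 (0.940). Without that library they lay at ranks 3, 1 and 8 for Asa6G01159.1, and ranks 1, 2 and 4 for Asa3G03846.1. Asa2G03865.1 was far more abundant than the COL gene, with 12.9 ± 6.28 FPKM in enlarging bulbs of Yuanjiangyangsuan and 172 ± 76.2 FPKM before enlargement (SD, n = 3 each).

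The 2 TGA4-like genes were not each other's nearest. Their correlation was 0.706, with Asa6G01159.1 at rank 2325 for Asa2G04763.1, and it was 0.87, at rank 656, without Chalingzipisuan enlarging replicate 3. Seen from Asa6G01159.1, Asa2G04763.1 was at rank 1143, and at rank 36 without that library. The correlation of Asa3G03846.1 with Asa2G04763.1 was -0.605, and -0.778 without that library.

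The other genes that the text of the study names in the photoperiod, FT and gibberellin pathways are 7, of which 6 passed the filter on low values. Asa4G02474.1, called GA20ox there, had 0 to 2 fragments per group of libraries and was not tested. The study named them on several grounds, the stage contrast, homology, selection or association with clove weight, and their stage values are given as a description only. Among these 6 genes, Asa6G01110.1, an ortholog of BEL5, whose mobile RNA promotes tuber formation in potato, had the highest correlation with each TGA4-like gene. Its log2 fold changes of enlarging over before were 2.11 (standard error 0.20), 1.51 (0.30) and 2.03 (0.53) in Yuanjiangyangsuan, Ershuizao and Chalingzipisuan, without overlap of the stages in any variety. The value in Chalingzipisuan was 2.45 (0.46) without enlarging replicate 3 and 1.52 (0.44) without replicate 1 before enlargement. The correlation of Asa6G01110.1 with Asa2G04763.1 was 0.841 (rank 638 of 33680), and 0.925 without enlarging replicate 3 of Chalingzipisuan. With Asa6G01159.1 it was 0.804 (rank 157). Asa0G05638.1 was close behind, with 0.784 and 0.783. The study chose Asa6G01110.1 and the TGA4-like genes on the stage contrast, which these correlations share.

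Asa6G06199.1, the FT-like gene, had log2 fold changes of 1.81 (standard error 0.25), 0.49 (0.44) and 1.25 (0.91) in Yuanjiangyangsuan, Ershuizao and Chalingzipisuan, and its stages overlapped in Ershuizao and Chalingzipisuan. The value in Chalingzipisuan was 0.14 (0.30) without replicate 1 before enlargement, which held 3 fragments. Asa0G05638.1, also called GA20ox, had 2.00 (0.26), 1.07 (0.42) and 0.96 (0.45) in the same order. Its stages overlapped in Ershuizao, where the value was 0.62 (0.32) without replicate 2 before enlargement. In Chalingzipisuan it was 0.44 (0.23) without replicate 1 before enlargement. GA20ox is known as an enzyme of gibberellin synthesis, while the study describes it as one that breaks down bioactive gibberellins. Asa2G00681.1, similar to the Arabidopsis clock gene ELF4, had 1.19 (0.27), -0.62 (0.42) and 1.37 (0.63). For Asa2G00681.1 the value in Ershuizao was -0.22 (0.33) without enlarging replicate 2, and that in Chalingzipisuan was 1.75 (0.61) without enlarging replicate 3 and 0.72 (0.45) without replicate 1 before enlargement.

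Asa8G01471.1 is a homolog of CDF2, a DOF factor that represses CONSTANS and FT in Arabidopsis. In Ershuizao it had 39.8, 32.2 and 35.6 FPKM in enlarging bulbs, against 16.2, 5.02 and 4.86 before enlargement. In Chalingzipisuan it had 13.5, 12.7 and 8.48 FPKM in enlarging bulbs, against 30.9, 30.8 and 24.7 before enlargement. In Yuanjiangyangsuan its mean was 6.69 FPKM in enlarging bulbs and 10.7 FPKM before enlargement, without overlap. The COL gene was lower in enlarging bulbs of every variety. The CDF2 homolog was higher in enlarging bulbs of Ershuizao and lower in those of Chalingzipisuan and Yuanjiangyangsuan. A link between these genes was not tested. Asa2G00237.1, a homolog of the rice DELLA protein SLR1, a repressor of gibberellin responses, had log2 fold changes of 0.40 (standard error 0.28), 0.35 (0.29) and 0.04 (0.37) in Yuanjiangyangsuan, Ershuizao and Chalingzipisuan, the last of which was -0.22 (0.38) without replicate 2 before enlargement.

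Between varieties over both stages, limma called 2 of these 6 genes for Yuanjiangyangsuan against Chalingzipisuan and the same number against Ershuizao, where 38.7% and 41.7% of all genes were called. Asa2G00237.1 was higher in Yuanjiangyangsuan, by 0.59 against Chalingzipisuan (limma adjusted P = 0.0246) and by 0.63 against Ershuizao (limma adjusted P = 0.0170). Asa8G01471.1 was lower, with log2 differences of -1.06 against Chalingzipisuan (limma adjusted P = 0.00205) and -0.93 against Ershuizao (limma adjusted P = 0.00517). Against Ershuizao its mean was lower in enlarging bulbs only, at 6.69 against 35.9 FPKM. Before enlargement it was 10.7 FPKM against 8.71 FPKM in Ershuizao. None of the 6 was called by limma for Ershuizao against Chalingzipisuan over both stages, with 1 at unadjusted P under 0.05 and 0 called by voom. At the single stages Asa8G01471.1 differed in that pair in both directions, by 1.62 in enlarging bulbs (limma adjusted P = 0.036) and by -1.88 before enlargement (limma adjusted P = 0.0102).

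**Figure D4:**
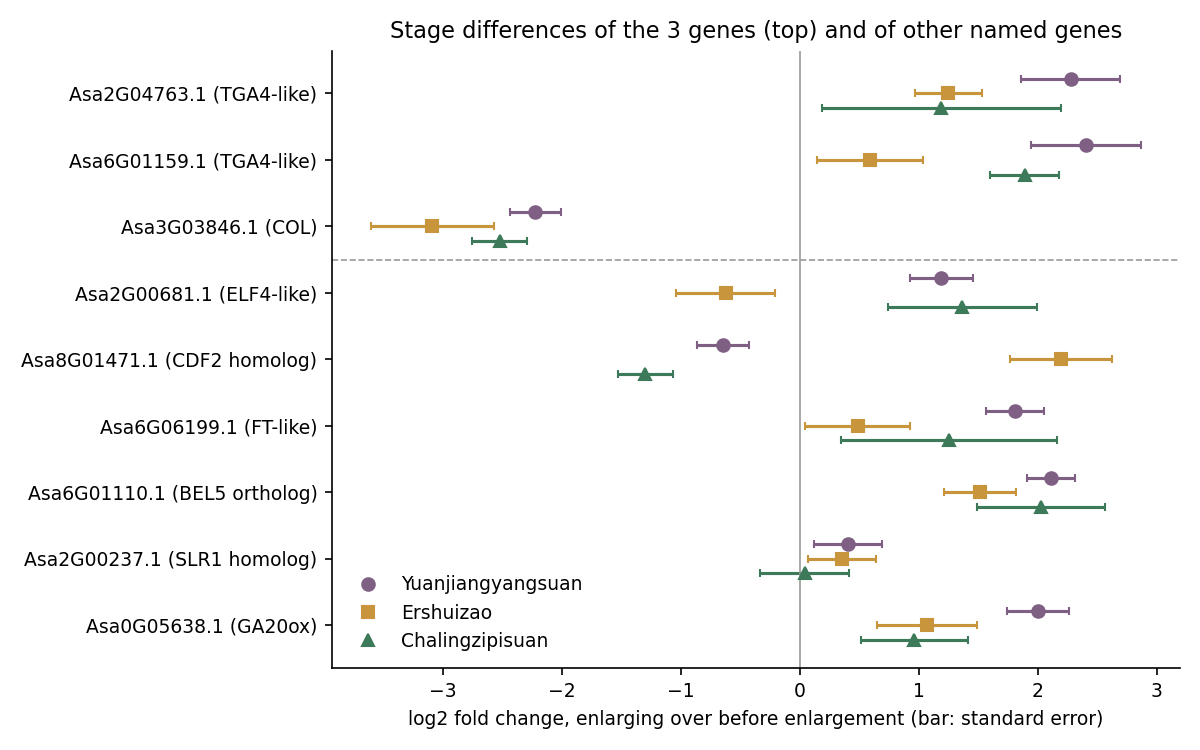
Log2 fold changes of enlarging over before enlargement (x axis, bars are standard errors) for the 3 genes, above the dashed line, and for 6 other genes of the photoperiod, FT and gibberellin pathways named by the study, in 3 varieties. Asa3G03846.1 lies between -3.09 and -2.23 in all varieties, and Asa8G01471.1 lies at 2.2 in Ershuizao and below 0 in both other varieties.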

How the data were processed

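RNA of 18 libraries was sequenced from 3 varieties at 2 stages. Reads were trimmed and filtered by the authors and aligned with HISAT2 to the garlic reference genome that the paper names by accession. The deposited values are FPKM of each gene in each single library. The program that counted fragments is not given in the sources used here. No genome was used here, and no position or sequence is printed. Fragments were recovered from the steps of the FPKM values, with 99.7% of the values above 0 recovered at a tolerance of 0.003. They gave the depth, the counting intervals and 1 alternative test.

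Variety differences were tested two-sided on log2(FPKM + 0.5) with limma 3.58.1 (R 4.3.3), with trend and robust moderation and 6 group means, for 33681 genes of at least 0.5 FPKM in at least 3 of 18 libraries, at adjusted P under 0.05. The contrast over both stages is orthogonal to the stage contrasts, while those at 1 stage share its values. The scripts were tested on simulated data. The genes named are the 3 members, 7 further genes that the study's text names, and for each member the 3 genes with the highest correlation. The members and lists were chosen with earlier results of these data known. The study describes 3 individuals per group, so that P values measure the spread between these plants. Counting intervals treat fragments as independent molecules, and the sources name no molecular identifiers. Alternatives were other pseudocounts, filters, scalings, a replicate block, voom, fewer varieties and each library left out. Python 3.11.15 with numpy 2.4.6, pandas 2.3.3, scipy 1.17.1 and matplotlib 3.10.9 made the tables and plots.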

Additional observations from a re-analysis of the deposited data

Results flagged for a closer look

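The stage difference of Asa8G01471.1, the CDF2 homolog, pointed in opposite directions between varieties. On the log2 scale it was -0.643 in Yuanjiangyangsuan, 2.2 in Ershuizao and -1.30 in Chalingzipisuan. Each of the 3 enlarging libraries lay above the libraries before enlargement in Ershuizao and below them in both other varieties. Whether this stage difference differs between varieties was not tested here.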

How the results depend on the processing

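Between varieties, 763 of 783 values of the 3 genes kept their direction and side of the threshold. For Yuanjiangyangsuan minus Ershuizao over both stages, the 0.08 of Asa6G01159.1 turned to -0.32 with a pseudocount of 0.1, -0.90 with voom and -0.055 without both deviating libraries, an alternative chosen after seeing the data. In enlarging bulbs it passed with quantile normalization (1.30, limma adjusted P = 0.0186) and with a replicate block (0.99, 0.0385), and before enlargement with voom (-3.09, 0.0484). The block changed no other call of the 3 genes. Same-numbered libraries correlated between -0.569 and 0.389 in their deviations (9 of 45 over 0.1), and the replicate numbers were treated as names only. Asa2G04763.1 in Ershuizao minus Chalingzipisuan in enlarging bulbs turned to -0.17 without both deviating libraries. Genes called for that pair numbered 465, 149 and 201 over both stages, in enlarging bulbs and before enlargement when only both varieties were fitted, against 862, 282 and 362, and 910 before enlargement without both deviating libraries. The log2 stage difference of Asa6G01159.1 was 4.09, 1.73 and 5.46 in Yuanjiangyangsuan and 3.65, 1.26 and 5.24 in Chalingzipisuan with pseudocounts of 0.1 and 1 and voom. That of Asa3G03846.1 was -2.03 in Yuanjiangyangsuan with quantile normalization, -4.09 in Ershuizao with voom, and -2.76, -2.29 and -2.78 in Chalingzipisuan with pseudocounts of 0.1 and 1 and voom. Quantile normalization moved the median of all genes by over 0.1 for Yuanjiangyangsuan minus Ershuizao in enlarging bulbs, where Asa3G03846.1 was then at 1.51. The cause was not tested in any of these.

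With each library left out in turn, genes called for Ershuizao minus Chalingzipisuan numbered 562 to 1063 over both stages, 170 to 628 in enlarging bulbs and 201 to 801 before enlargement, with all 3 highest counts without Chalingzipisuan enlarging replicate 3. The difference of Asa3G03846.1 in Yuanjiangyangsuan minus Ershuizao in enlarging bulbs ran from 0.668 to 1.58. That of Asa6G01159.1 for this pair ran from -0.114 to 0.308 over both stages, from 0.597 to 1.44 in enlarging bulbs and from -1.19 to -0.544 before enlargement. It passed at 1.44 without Yuanjiangyangsuan enlarging replicate 2 (limma adjusted P = 0.0144) and at -1.19 without Ershuizao before enlargement replicate 2 (0.0494). Differences that never passed but changed sign were those of Asa2G04763.1 for Yuanjiangyangsuan minus Ershuizao over both stages (-0.280 to 0.0860), for Ershuizao minus Chalingzipisuan in enlarging bulbs (-0.358 to 1.45, negative without Chalingzipisuan enlarging replicate 3) and for Yuanjiangyangsuan minus Chalingzipisuan before enlargement (-0.114 to 0.541), and that of Asa6G01159.1 for the last pair and stage (-0.0777 to 0.201). Depth limits Asa6G01159.1 most, with 0 to 97 fragments per library.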
